A study of Mus musculus with 12 samples.

Results

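The neural crest stem-like state of melanoma was followed through 10 genes that mark it: Ngfr, Gfra1, Gfra2, L1cam, Sox9, Tfap2a, Tfap2b, Rxrg, Nes and Aqp1. They are 10 of the 18193 genes measured, and 26 of the 34945 probe sets that the array assigns to a single gene. They were taken by name. Where a gene had several probe sets, the one that was brightest on average across the 12 arrays gave its value, and the others are described beside it. C790 is an Nras-mutant mouse melanoma line that carries lentiviral vectors for inducible Oct4, Klf4 and Sox2 and for the rtTA activator with mCherry. Partially reprogrammed (+dox) cells had received doxycycline since transduction, and control (−dox) cells carried the same vectors without the drug, so an effect of doxycycline itself cannot be told apart from that of the factors. Blasticidin selection followed at day 3. At day 20 the cells had been exposed for 72 h to the MEK inhibitor trametinib or to its solvent DMSO. The 4 groups of 3 arrays each were +dox trametinib, +dox DMSO, −dox trametinib and −dox DMSO. The trametinib dose of the array samples is not given in the sources used here. The labels do not say whether arrays of a group came from separate cultures, and the methods speak of independent experiments for the study as a whole, without naming the arrays. If they were not, the p-values cover array-to-array spread alone, which may be technical.

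In melanoma under MAPK inhibition, a small drug-tolerant population takes on traits of the embryonic neural crest, the migratory tissue that gives rise to melanocytes, Schwann cells and peripheral neurons. It is recognised by the neurotrophin receptor NGFR, the GDNF co-receptors GFRA1 and GFRA2, the water channel AQP1 and the retinoid receptor RXRG, a nuclear receptor that has been linked to this state in human melanoma grafts. SOX9 and the AP-2 factors TFAP2A and TFAP2B act in neural crest specification, nestin (Nes) is a filament protein of neural progenitors, and L1CAM is an adhesion molecule of neurons and of invading tumour cells.

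The sequences upstream of Aqp1 and Ngfr are shown because these genes had the largest differences with trametinib and with doxycycline. They are the 250 bases before the start site from RefSeq (GRCm38.p6), written 5′ to 3′ on the strand of the gene, with each GC box (GGGCGG, either strand) in capitals.
Aqp1, chr6:55336049-55336298, plus strand: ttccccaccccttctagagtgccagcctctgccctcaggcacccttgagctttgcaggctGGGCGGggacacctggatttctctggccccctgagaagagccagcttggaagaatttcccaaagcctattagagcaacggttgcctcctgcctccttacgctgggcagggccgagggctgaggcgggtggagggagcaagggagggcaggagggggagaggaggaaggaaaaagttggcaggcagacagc
Ngfr, chr11:95587699-95587948, minus strand: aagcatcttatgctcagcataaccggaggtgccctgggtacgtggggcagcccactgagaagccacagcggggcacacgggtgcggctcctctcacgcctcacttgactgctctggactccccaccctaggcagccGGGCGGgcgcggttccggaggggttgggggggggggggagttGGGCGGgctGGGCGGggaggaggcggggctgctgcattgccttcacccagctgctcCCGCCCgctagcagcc
The Aqp1 window held 1 GC box, which begins 190 bases before the start, and had a GC content of 62.0%. The Ngfr window held 4 GC boxes between 114 and 16 bases before the start and had a GC content of 70.4%. Such a box stood in 32.97% of 32536 mouse windows of this length. The AP-1 letters TGANTCA (6.73% of all windows), the ETS letters CCGGAAG (6.95%), the E-box CACGTG (6.04%) and the octamer ATGCAAAT (1.62%), searched on both strands with overlapping matches counted, were found in none of the 11 windows of 8 members. Sox9 and Gfra2 were not in the promoter table used here.

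All values are log2 expression, so a difference of 1 means a doubling. A background level of 4.87 was set from 84 probe sets of odorant, pheromone and taste receptor genes. Arrays of a group correlated with each other at 0.9818 to 0.9941, with −dox DMSO array 1 lowest. Trametinib lowered 8 of 8 ERK target genes in both cell states. Dusp6, a phosphatase that dampens ERK, fell by 6.90 in +dox cells (limma, adjusted p = 9.16e-09), and in −dox cells, where it lay under the background level, by at least 7.19 (adjusted p = 1.52e-09). Of 10 melanocyte markers, Mitf, Pmel and Sox10 lay above the background level, while Tyr, Tyrp1, Dct, Mlana, Slc45a2, Gpr143 and Trpm1 lay under it in all group means. The endogenous and transgenic messages of the reprogramming factors were not told apart here. Whether these probe sets detect the transgenic messages was not tested, so a lower value does not show that a factor fell. The paper reports higher Sox2 expression in partially reprogrammed cells by quantitative PCR, and also shows a western blot of SOX2 protein. The array difference of Sox2 given next went the other way, without passing the test in the fit over all arrays. The reason was not tested. Under DMSO, Pou5f1 (Oct4) was higher in +dox cells by at least 0.58 (measured difference 0.82, adjusted p = 0.0155, and 0.0604 without +dox DMSO array 3), whereas Sox2 differed by -1.53 (adjusted p = 0.0909, with calls at -1.99 and 0.0303 without −dox DMSO array 1, at 0.0468 without −dox trametinib array 1 and at 0.000834 with array weights) and Klf4 by -0.15 (adjusted p = 0.798, and 0.0255 with array weights).

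Among the 10 genes, Aqp1 fell under trametinib in both cell states. In the fit over all arrays no other member passed the test in any comparison. With the replicate number as a block in limma, Ngfr also passed between the cell states under trametinib (adjusted p = 0.0406) and Sox9 under DMSO (adjusted p = 0.0212). Gfra1 passed with trametinib in −dox cells (adjusted p = 0.0471). The counts that follow are those of the fit without the block. They leave out the pairing by replicate number that was taken for doxycycline and for trametinib in +dox cells. The share of all genes called with the block is not given here. Trametinib lowered 1 of 10 members in −dox cells, where 22.4% of all genes were called in either direction and 10.8% as lower. It lowered 1 of 10 in +dox cells, where 26.2% of all genes were called and 12.5% as lower. Between +dox and −dox cells limma called 0 of 10 members under DMSO (6.15% of all genes called) and 0 of 10 under trametinib (3.37% of all genes called). At an unadjusted p under 0.05 it was 1 member under DMSO, beside 20.2% of all genes, and 1 under trametinib, beside 14.4%. The trametinib responses of the cell states differed for 0 of 10 members (0.33% of all genes called, and 1 member at an unadjusted p under 0.05 beside 11.6% of all genes). The median difference of the members with trametinib was 0.13 in +dox cells and -0.01 in −dox cells, beside 0.02 and 0.06 over all genes. With doxycycline it was -0.04 under trametinib and 0.06 under DMSO, beside -0.02 and 0.01 over all genes.

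**Figure D1:**
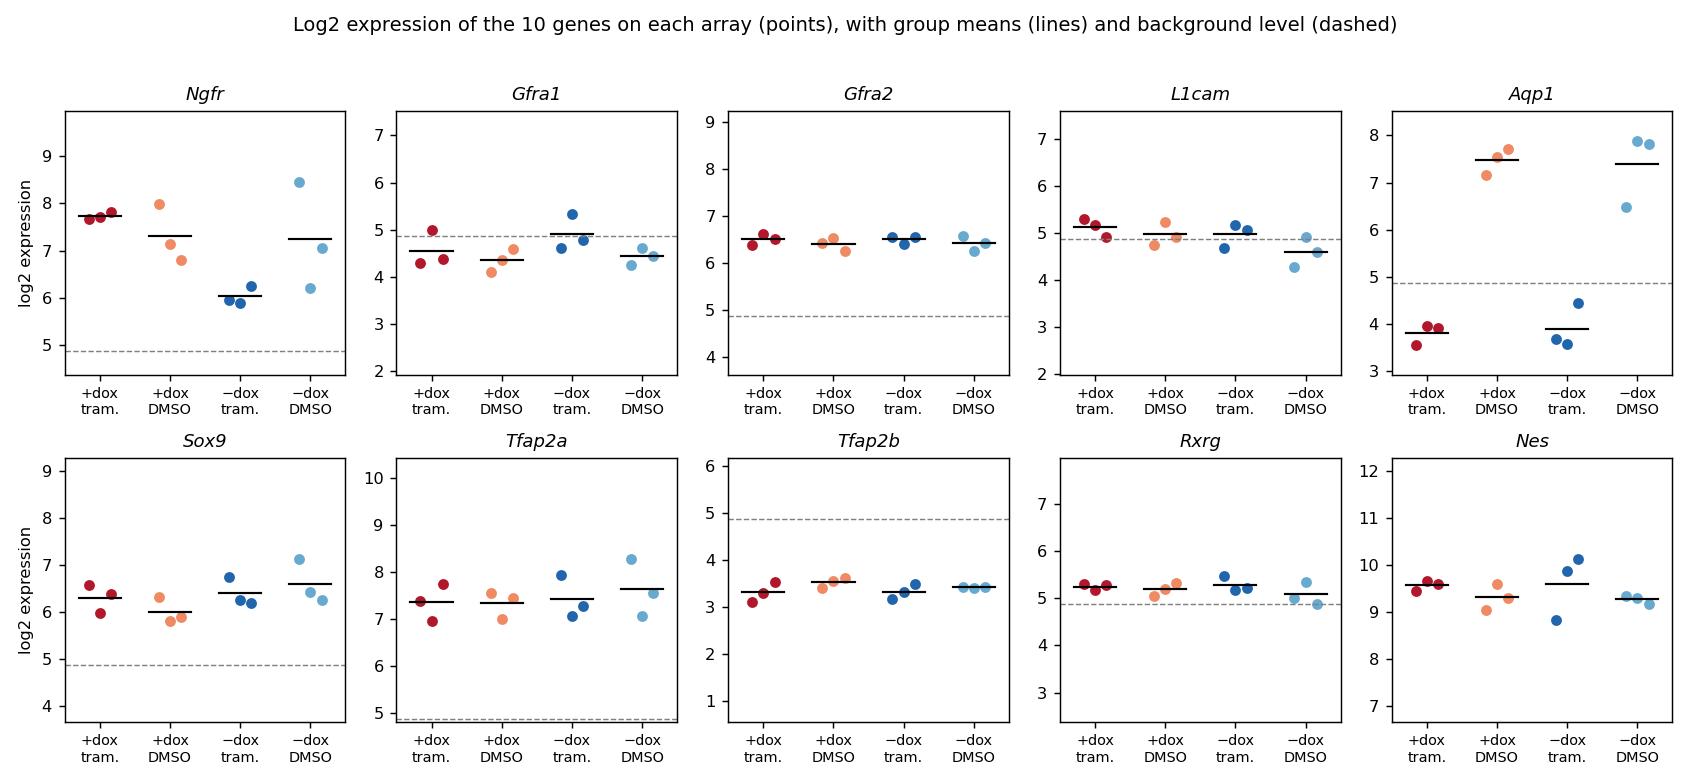
Log2 expression of each of the 10 genes (y axis, the same span of values in every panel) on the 3 arrays of each group (x axis). Points are arrays, lines are group means and the dashed line is the background level of 4.87. All 6 trametinib arrays of Aqp1 lie under it, and the Ngfr arrays of +dox and −dox cells under trametinib do not overlap.

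Of the 10 members, 9 had a group mean above the background level and 6 (Ngfr, Gfra2, Sox9, Tfap2a, Nes and Rxrg) lay above it on all 12 arrays. Tfap2b was under it throughout. With a stricter background level at the 99th percentile, 5.42, the members with a group mean above it were 6, without Gfra1, Rxrg and L1cam.

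Aqp1, which lets water cross the plasma membrane, had the largest change of the group. In +dox cells it measured 3.55, 3.95 and 3.91 under trametinib, against 7.17, 7.54 and 7.72 under DMSO. In −dox cells it measured 3.67, 3.56 and 4.44 under trametinib, against 6.49, 7.89 and 7.81 under DMSO. The arrays with and without the inhibitor did not overlap in either cell state, and all trametinib arrays lay under the background level, so the size of the fall is a lower bound. It was at least 2.61 on the log2 scale, or 6.09-fold, in +dox cells (measured difference -3.67, SE 0.35, adjusted p = 3.73e-05) and at least 2.53, or 5.76-fold, in −dox cells (measured difference -3.51, SE 0.35, adjusted p = 9.0e-05). Arrays without overlap occurred in 40.7% of all genes in +dox cells and in 35.6% in −dox cells. The call held in 42 of 42 alternative analyses of both cell states. Of the 6 fibroblast markers, 3 rose with trametinib in +dox cells, and 3 rose and 1 fell in −dox cells, and their part in the Aqp1 values was not tested. In bulk samples, fewer cells that express a gene and less RNA per cell cannot be told apart.

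Doxycycline left Aqp1 without a detectable difference. Under DMSO its arrays overlapped between the cell states, as did those of all 10 members on the probe set with the highest mean. Of all genes, 22.4% had arrays without overlap. Other probe sets of Gfra1, Sox9, Tfap2b and Nes were separate there without passing the test. For Aqp1 the +dox DMSO mean was 7.48 ± 0.28 and the −dox DMSO mean 7.40 ± 0.79 (SD, n = 3 each), a difference of 0.08 with a 95% interval of -0.69 to 0.85. Under trametinib both groups were under the background level and no fold is given. The difference between the responses was -0.17, with an interval of -1.25 to 0.92. Aqp1 is covered by a single probe set. The 3 genes whose pattern over the 12 arrays was closest to it among 12452 genes above the background level were Prkg2, a cGMP-dependent kinase (r = 0.986), Nuak2, an AMPK-related kinase (r = 0.985), and Fundc2, a mitochondrial outer membrane protein (r = 0.982). These correlations run over the same 12 arrays, trametinib and DMSO together, and are descriptions. Prkg2 averaged 4.39 with trametinib and 10.59 with DMSO in +dox cells, and 4.11 with trametinib and 10.65 with DMSO in −dox cells.

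Ngfr, the low-affinity neurotrophin receptor also called CD271, had the largest difference of the members between the cell states. Its +dox and −dox arrays were separate under trametinib and overlapped under DMSO. Under trametinib it measured 7.67, 7.72 and 7.82 in +dox cells, against 5.95, 5.88 and 6.25 in −dox cells. Under DMSO it measured 7.99, 7.14 and 6.79 in +dox cells, against 8.45, 6.2 and 7.06 in −dox cells. The 6 trametinib arrays were tight within each cell state, whereas the −dox DMSO arrays spread over more than 2 log2 units and overlapped the +dox DMSO arrays.

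Under trametinib the Ngfr difference of +dox over −dox cells was 1.71, or 3.27-fold (SE 0.46, 95% interval 0.70 to 2.72). It missed the threshold in the fit over all arrays (limma, adjusted p = 0.074) and passed it with the replicate number as a block (adjusted p = 0.0406). Arrays without overlap occurred in 20.1% of all genes in this comparison. The −dox DMSO arrays are not part of the comparison but enter the shared estimate of spread. Without −dox DMSO array 1 the adjusted p was 0.00793 and without array 2 it was 0.029, and over the removal of each array it ranged to 0.231. In the fit of the 6 compared arrays alone it was 0.00212. Under DMSO the difference was 0.07, with an interval of -0.94 to 1.08.

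With trametinib, Ngfr differed by 0.43 in +dox cells (interval -0.58 to 1.44) and by -1.21 in −dox cells (interval -2.22 to -0.20, adjusted p = 0.085). In −dox cells the difference was -1.73 without DMSO array 2 (adjusted p = 0.0128) and -0.60 at the other end of the range over removed arrays. The difference between the responses was 1.64 (interval 0.21 to 3.07, adjusted p = 0.347), so unequal responses were not established. The other 2 probe sets of Ngfr were also separated under trametinib without passing the test. Probe set 1450177_at measured 5.43, 5.36 and 5.4 in +dox cells, against 4.61, 4.35 and 4.94 in −dox cells. Probe set 1421241_at lay under the background level on all arrays.

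Of the 6 fibroblast markers 3 were lower in +dox than in −dox cells under trametinib, while 0 of 6 Schwann cell and glial markers were called (limma, 1 at an unadjusted p under 0.05). The mean level of the fibroblast markers was 6.89 to 7.10 in +dox and 8.09 to 8.30 in −dox cells under trametinib, with 4 of 6 above the background level and Col1a2 and Lum under it in all groups. The mean level of the 6 measured Schwann cell and glial markers was 5.17 to 5.34 in +dox and 5.30 to 5.54 in −dox cells, with Fabp7 and Mbp above the background level in both groups. Their part in the Ngfr values was not tested.

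**Figure D2:**
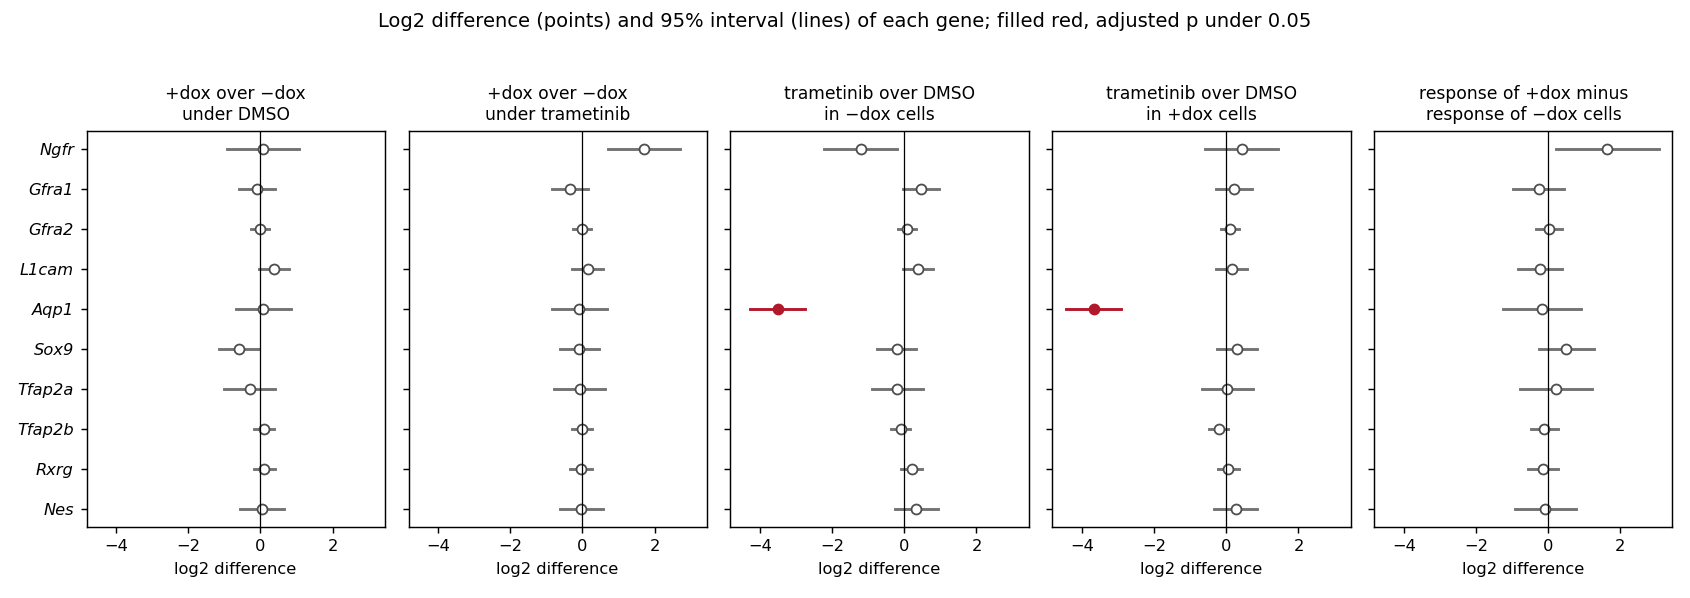
Log2 difference (x axis) of each of the 10 genes (y axis) in the 4 comparisons of groups and in the difference between the trametinib responses, with 95% intervals as lines. In this fit, without the replicate block, Aqp1 with trametinib, filled in red, is the only gene past an adjusted p of 0.05. It stands at -3.67 in +dox and -3.51 in −dox cells, and Ngfr at 1.71 between +dox and −dox cells under trametinib.

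Gfra1, which binds GDNF and presents it to the RET kinase, gave different readings from its probe sets. The probe set with the highest mean, 1421973_at, lay near the background level, with only 2 of 12 arrays above it. It averaged 4.55 ± 0.39 in +dox trametinib, 4.35 ± 0.24 in +dox DMSO, 4.90 ± 0.38 in −dox trametinib and 4.43 ± 0.19 in −dox DMSO cells (SD, n = 3 each) and passed no test. Probe set 1439015_at measured 4.73, 6.86 and 5.73 in −dox trametinib cells, against 4.19, 4.36 and 4.69 in −dox DMSO cells. In +dox cells it measured 3.87, 3.97 and 4.06 with trametinib, against 3.73, 3.97 and 3.94 with DMSO. The −dox trametinib arrays were thus above all others on this probe set, and only there did any array pass the background level.

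Over the 34945 probe sets, 1439015_at rose with trametinib in −dox cells by 1.36 (SE 0.40, adjusted p = 0.0348) and was lower in +dox than in −dox cells under trametinib by 1.81 (difference -1.81, SE 0.40, adjusted p = 0.0407). Both calls ended on removing single arrays. Without −dox trametinib array 2, the rise was 0.82 (adjusted p = 0.063) and the difference between cell states -1.26 (adjusted p = 0.0541). Without −dox trametinib array 3, the adjusted p values were 0.084 for the rise and 0.123 for the difference between cell states. Removing each −dox DMSO array also ended the call of the rise (adjusted p between 0.0525 and 0.0812), and removing +dox DMSO array 3 gave 0.051. The difference between cell states stayed called only without −dox trametinib array 1 (adjusted p = 0.00232) and without −dox DMSO array 1 (adjusted p = 0.0331). The third probe set, 1450440_at, measured 3.56, 5.26 and 4.0 in −dox trametinib cells, with the same array highest, against 3.42, 3.71 and 3.80 in −dox DMSO cells.

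Gfra2, the co-receptor that prefers neurturin, had the narrowest range of the 6 members above the background level on all arrays. Its 12 arrays lay between 6.24 and 6.61. The largest of its 4 differences between groups was 0.11, with trametinib in +dox cells (interval -0.14 to 0.36). Its other 4 probe sets passed no test, and none had a group mean above the background level.

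L1cam, a neural adhesion molecule of the immunoglobulin superfamily, was close to the background level. It averaged 5.12 ± 0.20 in +dox trametinib, 4.97 ± 0.25 in +dox DMSO, 4.97 ± 0.26 in −dox trametinib and 4.59 ± 0.32 in −dox DMSO cells (SD, n = 3 each). The −dox DMSO mean was the lowest and lay under the background level, but its arrays overlapped those of the other groups. The difference was 0.38 with doxycycline under DMSO (interval -0.05 to 0.80) and 0.38 with trametinib in −dox cells (interval -0.04 to 0.80), and neither passed the test. Its second probe set was under the background level on all arrays.

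Sox9, an SRY-type factor of neural crest and of cartilage, was lower in +dox cells under DMSO without passing the test of the fit over all arrays. It measured 6.32, 5.82 and 5.90 in +dox DMSO cells, against 7.13, 6.42 and 6.27 in −dox DMSO cells. The groups overlapped on 1 array, since +dox array 1 exceeded −dox array 3. The difference was -0.59 (SE 0.25, interval -1.14 to -0.05, adjusted p = 0.202), and with the replicate number as a block the adjusted p was 0.0212.

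Under trametinib the Sox9 difference between the cell states was -0.09 (interval -0.63 to 0.45). With trametinib it differed by 0.30 in +dox cells (interval -0.25 to 0.84) and by -0.21 in −dox cells (interval -0.75 to 0.34). Probe set 1424950_at, near the background level, differed by -0.91 between +dox and −dox cells under DMSO and did not pass the test. Probe set 1433889_at was called lower with trametinib in −dox cells (difference -0.43, adjusted p = 0.0302), but all of its arrays lay under the background level.

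Tfap2a and Tfap2b encode AP-2 factors that act in the neural crest and in the melanocyte lineage. Tfap2a was clearly expressed, with 6.96 to 7.75 in +dox trametinib, 7.0 to 7.55 in +dox DMSO, 7.07 to 7.94 in −dox trametinib and 7.07 to 8.27 in −dox DMSO cells. Its 4 differences between groups lay between -0.30 and 0.03, and their 95% intervals stayed between -1.0 and 0.73. Probe set 1426048_s_at was above the background level on all arrays and passed no test. Tfap2b lay between 3.11 and 3.61 on all arrays, under the background level. Its second probe set, 1435670_at, was lower with trametinib in +dox cells (difference -0.54, adjusted p = 0.00744), at 2.81 to 3.01 against 3.25 to 3.68 with DMSO, again under the background level.

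Rxrg, a partner of other nuclear receptors on DNA, lay slightly above the background level on all 12 arrays, between 4.89 and 5.47. The largest of its 4 differences between groups was 0.20, with trametinib in −dox cells (interval -0.09 to 0.50). It has a single probe set.

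Nes, the filament protein of neural progenitors, was read by 3 probe sets that all lay above the background level. The probe set with the highest mean measured 8.82, 9.87 and 10.12 in −dox trametinib cells, against 9.33, 9.29 and 9.18 in −dox DMSO cells. Trametinib array 1 lay below the DMSO arrays and the other trametinib arrays above them. The difference was 0.34 (interval -0.26 to 0.93, adjusted p = 0.43), and without that array 0.73 (adjusted p = 0.00944). Probe set 1453997_a_at separated the groups, with 7.04, 7.50 and 7.63 in −dox trametinib cells, against 6.32, 6.76 and 6.40 in −dox DMSO cells. On it Nes rose by 0.90 (SE 0.20, adjusted p = 0.0101), and the call held on removing any array (adjusted p up to 0.0454). The +dox DMSO arrays of this probe set, at 7.60, 7.06 and 7.12, also lay above the −dox DMSO arrays. That difference of 0.77 did not pass the test (limma, adjusted p = 0.0593). Probe set 1418289_at passed no test. In +dox cells the probe set with the highest mean measured 9.45, 9.65 and 9.60 with trametinib, against 9.04, 9.60 and 9.29 with DMSO, a difference of 0.26 (interval -0.34 to 0.85).

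**Figure D3:**
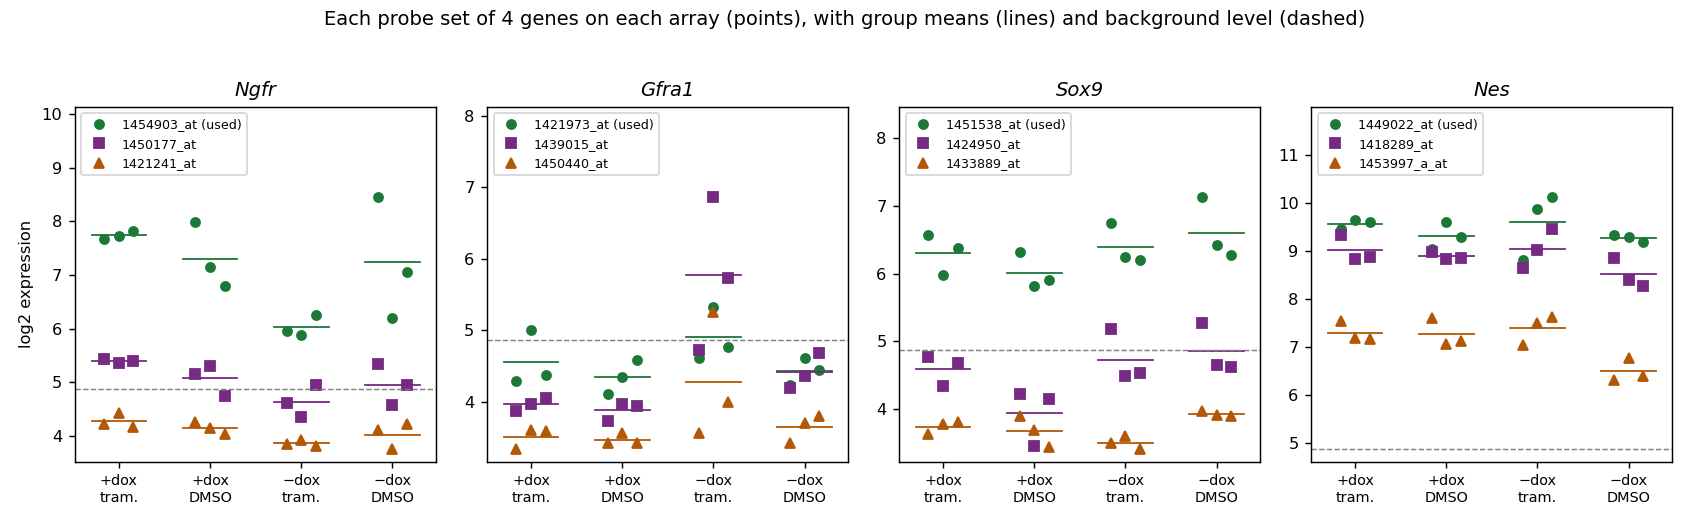
Log2 expression (y axis) of every probe set of Ngfr, Gfra1, Sox9 and Nes on the 3 arrays of each group (x axis). Points are arrays, lines are group means, the dashed line is the background level of 4.87 and "used" marks the probe set with the highest mean. Gfra1 probe set 1439015_at exceeds the background level only in −dox trametinib cells, with 6.86 on array 2, and Nes probe set 1453997_a_at is lowest in −dox DMSO cells.

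The genes that work with the members were followed through lists of their pathways. Beside the counts of these lists, limma called 26.2% of all genes with trametinib in +dox cells and 22.4% in −dox cells. With doxycycline it called 6.15% under DMSO and 3.37% under trametinib. No list was tested as a set, and its count is to be read beside these shares. Of 11 measured neurotrophin ligands, Trk receptors and Ngfr partners, trametinib raised 3 and lowered 1 in +dox cells, and raised 2 and lowered 1 in −dox cells. Rtn4r, the Nogo receptor that signals together with Ngfr, averaged 6.93 ± 0.14 with trametinib and 6.33 ± 0.11 with DMSO in +dox cells (SD, n = 3 each), a rise of 0.60 (adjusted p = 0.00225). In −dox cells its rise of 0.35 (adjusted p = 0.0426) was lost on removing each of 9 single arrays in turn, with adjusted p values up to 0.135. With doxycycline none of the 11 passed under DMSO (limma, 3 at an unadjusted p under 0.05) and 1 was lower under trametinib. This was Sort1, the sortilin receptor that binds pro-neurotrophins with Ngfr, at -0.76 (adjusted p = 0.0276, and up to 0.118 on removing single arrays, 5 of which ended the call).

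Of 8 GDNF ligands and receptors, 1 rose with trametinib in each cell state, and 1 was lower in +dox cells with each of trametinib and DMSO. Ncam1, a neural adhesion molecule that can act as an alternative GDNF receptor, was lower in +dox than in −dox cells under DMSO. It measured 8.41, 8.38 and 7.97 in +dox DMSO cells, against 10.18, 10.40 and 10.42 in −dox DMSO cells, a fall of 2.08 (difference -2.08, SE 0.19, adjusted p = 0.000287). Under trametinib it was lower by 0.79 (difference -0.79, adjusted p = 0.0494), a call lost on removing each of 11 of the 12 arrays in turn (adjusted p up to 0.185). Trametinib raised it by 1.48 in +dox cells (adjusted p = 0.000239), and by 0.18 without passing the test in −dox cells. Gdnf, the ligand of Gfra1, rose with trametinib in −dox cells by 1.81 (SE 0.52, adjusted p = 0.0274), a call lost without −dox trametinib array 2 or 3 or −dox DMSO array 1 or 3 (adjusted p up to 0.102). In +dox cells it differed by 1.29 (adjusted p = 0.0941, and 0.00694 with the replicate block). Ret, the kinase that these co-receptors serve, differed by 0.28 with trametinib in +dox cells (adjusted p = 0.261).

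Of 9 genes of the L1 family and its partners, 1 rose and 1 fell with trametinib in each cell state, and with doxycycline 1 was higher and 1 lower under trametinib and 2 were lower under DMSO. With the replicate block, Ank2, a second ankyrin, was also called higher in +dox cells under DMSO (difference 1.12, adjusted p = 0.0189). Chl1, a close relative of L1cam, measured 11.33, 9.67 and 10.02 with trametinib, against 8.89, 5.51 and 6.66 with DMSO, in +dox cells. The groups did not overlap, and the difference of 3.32 missed the threshold in the fit over all arrays (adjusted p = 0.0609) and passed it with the replicate block (adjusted p = 0.000252). In −dox cells, where the numbers were not taken to pair the arrays, it differed by 3.32 (adjusted p = 0.0681, and 0.000388 with the replicate block). Ank3, an ankyrin that ties L1 proteins to the membrane skeleton, fell in all 4 comparisons of groups. It averaged 5.07 ± 0.28 in +dox trametinib, 7.32 ± 0.43 in +dox DMSO, 8.03 ± 0.37 in −dox trametinib and 9.12 ± 0.07 in −dox DMSO cells (SD, n = 3 each). Trametinib lowered it by 2.25 in +dox cells (difference -2.25, adjusted p = 5.88e-05) and by 1.09 in −dox cells (difference -1.09, adjusted p = 0.00594). Under DMSO the difference of +dox over −dox cells was -1.80 (adjusted p = 0.00154), and under trametinib -2.95 (adjusted p = 5.43e-05). Nrp1, a semaphorin co-receptor that associates with L1, was lower in +dox cells under DMSO by 3.40 (difference -3.40, adjusted p = 0.00468). It measured 7.2, 6.15 and 6.63 in +dox DMSO cells, against 8.63, 10.91 and 10.63 in −dox DMSO cells, and the difference was -4.11 without −dox DMSO array 1.

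Of 20 further neural crest transcription factors, 5 were lower and 0 higher in +dox than in −dox cells under DMSO (Id3, Msx2, Snai1, Snai2 and Zeb2), and 2 were lower under trametinib (Snai1 and Zeb2). With the replicate block, Sox6 was also called lower under DMSO (difference -1.19, adjusted p = 0.00656). Snai1, a repressor that drives epithelial-to-mesenchymal transition, was among both, at -1.60 under trametinib (adjusted p = 0.00412) and -1.15 under DMSO (adjusted p = 0.0184, 0.0817 without +dox DMSO array 2 and 0.0612 without −dox DMSO array 3). Msx2 lay under the background level on all +dox DMSO arrays and was lower by at least 0.04 only (adjusted p = 0.0127). Its call was lost without +dox DMSO array 3 (adjusted p = 0.0578), without −dox DMSO array 3 (0.054) and with the compared arrays alone (0.0662). Fibroblast markers fell between the same groups, 3 of 6 under trametinib (Pdgfra with an adjusted p of 0.0415, and 0.0549 with the replicate block) and 4 of 6 under DMSO, with the mean level at 5.74 to 6.24 in +dox DMSO and 7.47 to 7.62 in −dox DMSO cells, and their part in these counts was not tested. Trametinib raised 3 and lowered 1 of the 20 in +dox cells, and raised 2 and lowered 3 in −dox cells. Sox6, a partner of Sox9 and a regulator of melanocyte development, measured 9.30, 8.53 and 8.86 with trametinib, against 6.14, 4.81 and 5.20 with DMSO, in +dox cells, a rise of 3.51 (adjusted p = 4.79e-05). In −dox cells it rose by 2.64 (adjusted p = 0.000398). Myc, a growth regulator that also acts in the neural crest and is a target of ERK signalling, fell by 3.97 in +dox cells (adjusted p = 5.74e-05) and by 3.44 in −dox cells (adjusted p = 0.000213).

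Around Rxrg, the 16 measured retinoid receptors and retinoic acid handling genes held the largest changes of these lists. Trametinib raised 3 and lowered 1 in +dox cells and raised 2 and lowered 1 in −dox cells, and 1 was lower in +dox than in −dox cells with each of trametinib and DMSO. Crabp2, which carries retinoic acid to its nuclear receptor, measured 10.22, 8.89 and 9.22 with trametinib, against 4.90, 4.91 and 4.95 with DMSO, in +dox cells. In −dox cells it measured 9.23, 9.33 and 9.59 with trametinib, against 5.88, 5.59 and 5.77 with DMSO. The rise was 4.52 in +dox cells (SE 0.26, adjusted p = 3.43e-06) and 3.64 in −dox cells (SE 0.26, adjusted p = 1.84e-05). Crabp1, the related protein that is associated with retinoic acid breakdown, went the other way. Its trametinib arrays all lay under the background level, so that it fell by at least 4.09 in +dox cells (adjusted p = 1.41e-05) and by at least 3.33 in −dox cells (adjusted p = 4.91e-05). Dhrs3, a retinaldehyde reductase, rose by 2.61 in +dox cells (adjusted p = 9.94e-05) and by 1.80 in −dox cells (adjusted p = 0.00125).

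**Figure D4:**
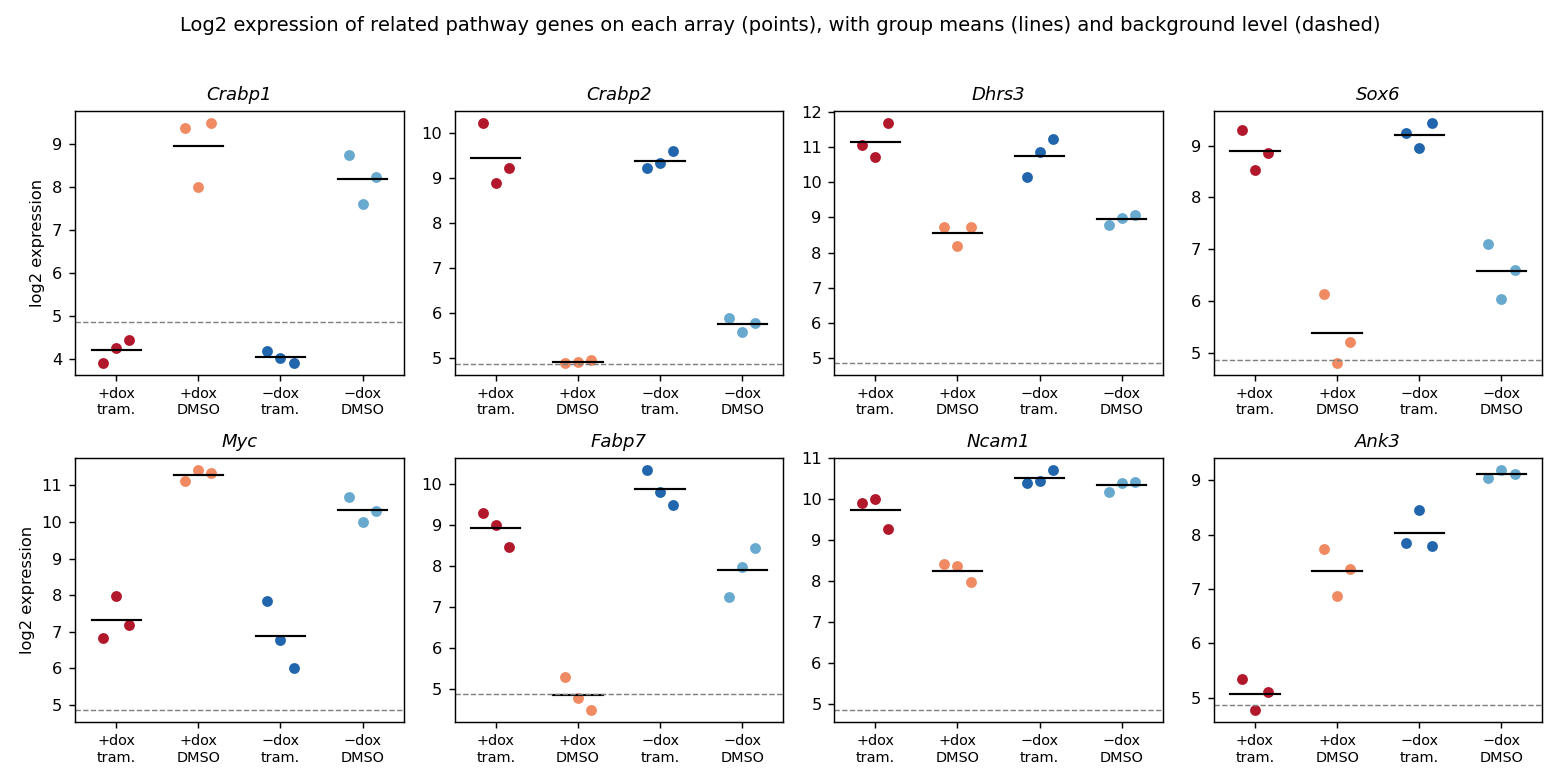
Log2 expression (y axis, own scale in each panel) of 8 genes of the related lists on the 3 arrays of each group (x axis). Points are arrays, lines are group means and the dashed line is the background level of 4.87. Crabp2, Dhrs3, Sox6 and Fabp7 are higher and Crabp1 and Myc lower with trametinib in both cell states, while Ank3 is also lower in +dox than in −dox cells.

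Among 9 other intermediate filament genes of nestin-positive cells, 1 was called higher in +dox cells under DMSO, 1 lower with trametinib in −dox cells, and 0 in the other comparisons of groups (limma, 1 each at an unadjusted p under 0.05). At that unadjusted p, the share of all genes was 14.4% for doxycycline under trametinib. It is not given here for trametinib in +dox cells. The higher one was Nefl, the neurofilament light chain, by at least 0.44. It averaged 5.31 in +dox DMSO cells and 3.05, under the background level, in −dox DMSO cells (adjusted p = 0.0316, and up to 0.134 on removing single arrays, 5 of which ended the call). With trametinib in +dox cells all Nefl arrays lay under the background level, as did +dox DMSO array 1 at 3.64. The difference was at least 0.44 downward (measured difference -1.54) and missed the threshold in the fit over all arrays. It passed with the replicate block (adjusted p = 0.0288) and in 4 other settings (adjusted p between 0.00691 and 0.0449). Without +dox DMSO array 1 it passed at a measured -2.38 (adjusted p = 8.46e-05). The lower one was Des (desmin), which differed by -0.57 (adjusted p = 0.00312, 0.215 when its probe sets were averaged). Among 10 other aquaporins, 1 rose with trametinib in +dox cells. This was Aqp3, a water and glycerol channel, at 6.02 ± 0.39 with trametinib and 5.06 ± 0.02 with DMSO (SD, n = 3 each), a rise of 0.96 (adjusted p = 0.00563). Aqp5 was called lower with trametinib in −dox cells at -0.93 (adjusted p = 0.029), a call lost on removing each of 5 single arrays (adjusted p up to 0.0994). With doxycycline none of the 10 passed (limma, 2 under trametinib and 1 under DMSO at an unadjusted p under 0.05).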

How the data were processed

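Total RNA of 12 C790 samples was hybridised to Affymetrix GeneChip mouse genome arrays. Per the methods, the authors processed the scans by RMA within Chipster. The deposited table was taken unchanged and holds a log2 intensity for each probe set, from 2.15 to 14.46. RMA shrinks differences near background. The number of arrays limits the precision. Of 45101 probe sets, 64 controls and 10092 without exactly 1 gene in the platform annotation (932 of these with several) were left out, and no filter on low values was applied. Of the 18193 genes, 18032 matched RefSeq by Entrez identifier. All columns mapped to a sample.

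The background level is the 95th percentile of the mean values of 84 chemosensory receptor probe sets. A gene under it in 1 group mean and above it in the other is given a bound on its change, from the brighter mean down to that level. Testing used limma (version 3.58.1, R 4.3.3) with lmFit and eBayes and a mean per group over the 12 arrays, with p-values adjusted by Benjamini-Hochberg over all genes and a call at an adjusted p under 0.05. Probe sets were tested in the same way over all 34945. The fit was tested on simulated data.

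Same-numbered arrays deviated together with correlations over 0.1 in all 3 pairs for doxycycline under trametinib (0.21 to 0.29) and under DMSO (0.17 to 0.34) and for trametinib in +dox cells (0.16 to 0.45), so the numbers were taken to pair these arrays. No label states this pairing. For trametinib in −dox cells (0.02 to 0.46) they were not, since the pair of number 3 was under 0.1. The pairings taken above link these same arrays, so this choice rests on the threshold alone.

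The members and gene lists were chosen with earlier results of these data known. Beside the members, up to 4 genes of each list with the smallest p over the comparisons were to be named, and the 3 genes closest to a called member. Id3, Snai2 and Zeb2 were named after their values were seen. Some genes of the lists were not analysed here, and counts are given over the measured ones. Promoter sequences are from RefSeq. Alternatives were the replicate block, the compared arrays alone, averaging of the probe sets of a gene, single probe sets, genes above background only, quantile normalisation, median centring, array weights, trended and robust eBayes, other thresholds and leaving out each array. Plots were made in matplotlib 3.10.9 (Python 3.11.15).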

Additional observations from a re-analysis of the deposited data

Results flagged for a closer look

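Egr2, a transcription factor of Schwann cells and of the early response to ERK signalling, was the gene of the named lists whose trametinib responses differed between the cell states by the test of the difference itself, at 2.63 (limma, adjusted p = 0.0391). It fell by at least 1.69 in +dox cells (measured difference -1.87, adjusted p = 0.00123), to 4.69 ± 0.35 with trametinib against 6.56 ± 0.67 with DMSO, and by at least 3.96 in −dox cells (measured difference -4.50, adjusted p = 1.51e-05), to 4.33 ± 0.18 with trametinib against 8.83 ± 0.43 with DMSO (SD, n = 3 each). In +dox trametinib cells Egr2 measured 4.28, 4.90 and 4.88, with 1 of the 3 arrays under the background level. Both trametinib means lay under it, so the size of the difference between the responses is uncertain. The Egr2 call was lost on removing each of 9 of the 12 arrays in turn (adjusted p up to 0.098). Egr2 was the only such gene in the fit over all arrays, but not in every setting. With the replicate block, Trp63 (difference 2.14, adjusted p = 0.0272) and Dcn (difference 1.88, adjusted p = 0.0492) also passed. Array weights added further genes, among them Fabp7 (adjusted p = 0.00263) and Ncam1 (adjusted p = 0.00732).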

How the results depend on the processing

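Of 1035 alternative values for the 50 results of the members, 1021 kept their side of the threshold, 14 newly passed it and 0 lost it. No called value changed sign, but some values that were not called did. Ngfr between the cell states under DMSO, at 0.07, reached -0.45 on removing single arrays. The number of members called with trametinib in −dox cells, 1 in the report, was 2 with the replicate block (Aqp1 and Gfra1), 2 when the probe sets of a gene were averaged (Aqp1 and Nes), 4 with array weights (Ngfr, Aqp1, Nes and L1cam), 2 at an adjusted p under 0.1 (Ngfr and Aqp1), and 1 to 2 over the removal of each array (2 without −dox trametinib array 1, which adds Nes, or −dox DMSO array 2, which adds Ngfr). With trametinib in +dox cells it was 2 when the probe sets of a gene were averaged (Aqp1 and Tfap2b). Between +dox and −dox cells under trametinib it was 1 in place of 0, in each case Ngfr, with the replicate block, the compared arrays alone, array weights and an adjusted p under 0.1, and 0 to 1 over the removal of each array (1 without −dox DMSO array 1 or 2). Under DMSO it was 1 in place of 0, Sox9, with the replicate block. The block changed no other call of a member. In −dox cells the numbers were not taken to pair the arrays, since 1 pair correlated at 0.02. The block value of 0.47 for Gfra1 (adjusted p = 0.0471) was therefore not read as a paired result. The share of all genes called in each of these settings is not given here. The changed counts therefore cannot be read as a result about the members. The cause of these changes was not tested. The signal of Gfra1, L1cam, Rxrg and Tfap2b near or under the background level limits what can be read from them.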

Other observations

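Fabp7, a fatty acid binding protein of radial glia and of the Schwann cell lineage, measured 9.29, 8.99 and 8.46 with trametinib, against 5.28, 4.77 and 4.49 with DMSO, in +dox cells, and 10.34, 9.81 and 9.49 with trametinib, against 7.25, 7.98 and 8.44 with DMSO, in −dox cells. It rose with trametinib by at least 4.04 in +dox cells (limma, adjusted p = 1.83e-05) and by 1.99 in −dox cells (adjusted p = 0.00151). Under DMSO it was lower in +dox than in −dox cells by at least 3.02 (measured difference -3.04, adjusted p = 0.000695). Mitf, the master regulator of melanocytes, averaged 8.19 ± 0.44 with trametinib and 6.97 ± 0.46 with DMSO in +dox cells (SD, n = 3 each), a rise of 1.22 (adjusted p = 0.00765). In −dox cells it differed by 0.83 (adjusted p = 0.0584). Several alternatives called this rise, with adjusted p values from 0.0149 with averaged probe sets to 0.0465 with genes above background only.

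Leukocyte and keratinocyte markers held few calls. Itgam, an integrin of myeloid cells, was higher in +dox than in −dox cells under DMSO by at least 0.73 (adjusted p = 0.0136, 0.0582 without +dox DMSO array 3 and 0.0921 with the compared arrays alone). Its +dox DMSO arrays were 4.19, 6.9 and 5.72, the first of them under the background level. It was lower with trametinib in +dox cells by at least 0.73 (measured difference -1.88, adjusted p = 0.0131). Ptprc, which all leukocytes carry, lay under the background level in all groups. Of the 6 measured leukocyte markers, 4 had a mean above it in +dox DMSO cells and 3 in each other group. Cd68 (5.24 to 8.88) and Cd3e (5.31 to 5.87) lay above it on all arrays. Cd3e rose with trametinib in −dox cells by 0.35 (limma, adjusted p = 0.0342, and up to 0.133 on removing single arrays). Trp63, a factor of basal keratinocytes, was lower in +dox than in −dox cells under DMSO by at least 2.61 (adjusted p = 0.00222). Its +dox DMSO arrays were 5.53, 3.9 and 4.12, the first of them above the background level.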
